A study of Mus musculus with 4 samples.

Results

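The ATF4 amino acid and serine response was followed here as 31 genes, chosen by symbol from the 45777 genes of the series' joint expression table. All 31 were found. They comprise 7 transcription factor genes, 4 feedback regulators, 6 enzymes of serine and one-carbon metabolism, 5 other enzymes of amino acid synthesis, 7 amino acid transporter genes and 2 genes for a secreted and a surface protein. The cells were C2C12 myotubes, the contractile multinucleate cells that this mouse myoblast line forms after fusion, grown in medium with 2% horse serum. Poly(A) RNA was sequenced in 4 groups of 1 library each: clenbuterol, a control for clenbuterol, EPS and a control for EPS. Clenbuterol is a β2-adrenergic agonist, and EPS, which the labels leave unexpanded, was taken to mean electrical pulse stimulation. The treatment field names 30 ng/ml clenbuterol for all 4 libraries, controls included, so groups rest on the titles. Both treatments were set up as models of exercise in a dish. Depth was similar, at 32640884 to 35597074 estimated counts per library.

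The sample titles and the data names of the EPS pair disagree: the record titled EPS holds data named for the control, and the reverse. They are named here by title, as the EPS-titled and the control-titled library. If the data names are right, every EPS difference below changes direction, while its size and the comparison of the EPS pair with the clenbuterol pair are unaffected. With 1 library per group there is no replicate, no test between conditions and no SD. Folds are ratios of CPM, the estimated counts scaled to a common library size, after correction with TMM factors, with an exact 95% interval in parentheses that covers counting error only. TPM, which also corrects for gene length, is used for levels.

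ATF4 is a basic leucine zipper factor at the end of the integrated stress response. Kinases that sense amino acid lack, misfolded protein in the endoplasmic reticulum, haem lack or viral RNA phosphorylate the initiation factor eIF2α, which slows most translation but favours translation of Atf4 mRNA. ATF4 then pairs with C/EBP proteins and binds composite sites in genes that import and make amino acids, charge tRNA and feed serine carbon into folate metabolism. If stress lasts, it also drives CHOP (the product of Ddit3), TRIB3 and CHAC1, which restrain the response or favour cell death. Because much of ATF4 control is translational, its mRNA level is not its activity. In muscle the pathway is known for its part in mitochondrial stress, disuse and the release of FGF21.

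ATF4 is known to bind this composite site, so the members that hold its letters near a start are shown first. RefSeq promoter windows on GRCm38.p6, 250 bases before to 50 bases after a start, were found for 27 of the 31 members. The letters TGATGNAA, or TTNCATCA for the other strand, occurred in 9 of these 27 and not in the other 18, against 4.51% of all 27025 genes with a window (3.97% of 32851 windows). The tighter form TGATGCAA or TTGCATCA, which is part of the first, occurred in 7 of the 27 and in 1.03% of all genes. Each line below gives 30 bases 5′ to 3′, turned so that the match, in capitals, reads TGATGNAA. A match is a description of the letters only. The members were chosen as genes of the ATF4 response, so their share beside that of all genes is not a test.
Atf3 (chr1:191183425-191183454, gene on the minus strand): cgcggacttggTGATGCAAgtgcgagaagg
Chac1 (chr2:119351038-119351067, plus strand): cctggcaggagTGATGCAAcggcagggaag
Trib3 (chr2:152344028-152344057, minus strand): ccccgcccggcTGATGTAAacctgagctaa
Asns (chr6:7693214-7693243, minus strand): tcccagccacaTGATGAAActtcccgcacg
Nupr1 (chr7:126625562-126625591, minus strand): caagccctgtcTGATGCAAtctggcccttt
Slc1a4 (chr11:20332699-20332728, minus strand): caggctggagaTGATGCAAcgcaggaggca
Pycr1 (chr11:120643833-120643862, minus strand): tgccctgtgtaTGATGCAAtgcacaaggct
Jdp2 (chr12:85599372-85599401, plus strand): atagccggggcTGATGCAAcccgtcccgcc
Vldlr (chr19:27216809-27216838, plus strand): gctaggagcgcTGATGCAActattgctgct

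The matches began between 4 and 200 bases before the RefSeq start of their window, except in Trib3, where the match began at base 15 of the transcript. For Jdp2 and Vldlr that is an inner start, and the match lies within the gene as the files place it. To show the setting of a site, the 250 bases upstream of Chac1 and of Asns are given on the strand of the gene, with the match in capitals.
Chac1 (chr2:119350992-119351241): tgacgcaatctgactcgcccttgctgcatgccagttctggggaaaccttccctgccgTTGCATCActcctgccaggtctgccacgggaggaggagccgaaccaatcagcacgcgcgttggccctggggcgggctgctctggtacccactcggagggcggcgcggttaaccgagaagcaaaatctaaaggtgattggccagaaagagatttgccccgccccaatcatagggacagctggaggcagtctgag
Asns (chr6:7693210-7693459): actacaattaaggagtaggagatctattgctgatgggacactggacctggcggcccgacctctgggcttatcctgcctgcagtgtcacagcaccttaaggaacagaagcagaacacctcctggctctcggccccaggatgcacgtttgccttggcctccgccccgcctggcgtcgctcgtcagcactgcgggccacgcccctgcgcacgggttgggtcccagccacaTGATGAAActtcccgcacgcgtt

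Because clenbuterol acts through cyclic AMP, the full cyclic AMP response element TGACGTCA, which reads alike on both strands, was searched in the same windows. It occurred in 1 of the 27 members (3.70%), Ppp1r15a, and in 2.03% of all genes, so it does not set the members apart. The match, in capitals, began 12 bases before the start on the strand of the gene.
Ppp1r15a (chr7:45526262-45526291, minus strand): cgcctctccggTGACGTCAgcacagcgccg

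No member differed by 2-fold within either pair, and the wider spread lay between the pairs. The call was a ratio of at least 2-fold in TPM plus 1, and a gene entered when either library of the pair reached a TPM of 1, as all 31 members did. With clenbuterol 0 of 31 members were higher and 0 lower, where 1.00% and 0.515% of all 13788 genes were. In the EPS-titled library 0 of 31 were higher and 0 lower, where 0.868% and 1.14% of 13828 genes were, so at this threshold fewer than 1 member would be called at the background rate. Ddit3 stood just under the threshold in the EPS pair, at a log2 ratio of 0.98, and just over it in CPM. The median log2 ratio of the members was 0.01 with clenbuterol, beside −0.01 over all genes, and −0.09 in the EPS-titled library, beside −0.02.

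**Figure D1:**
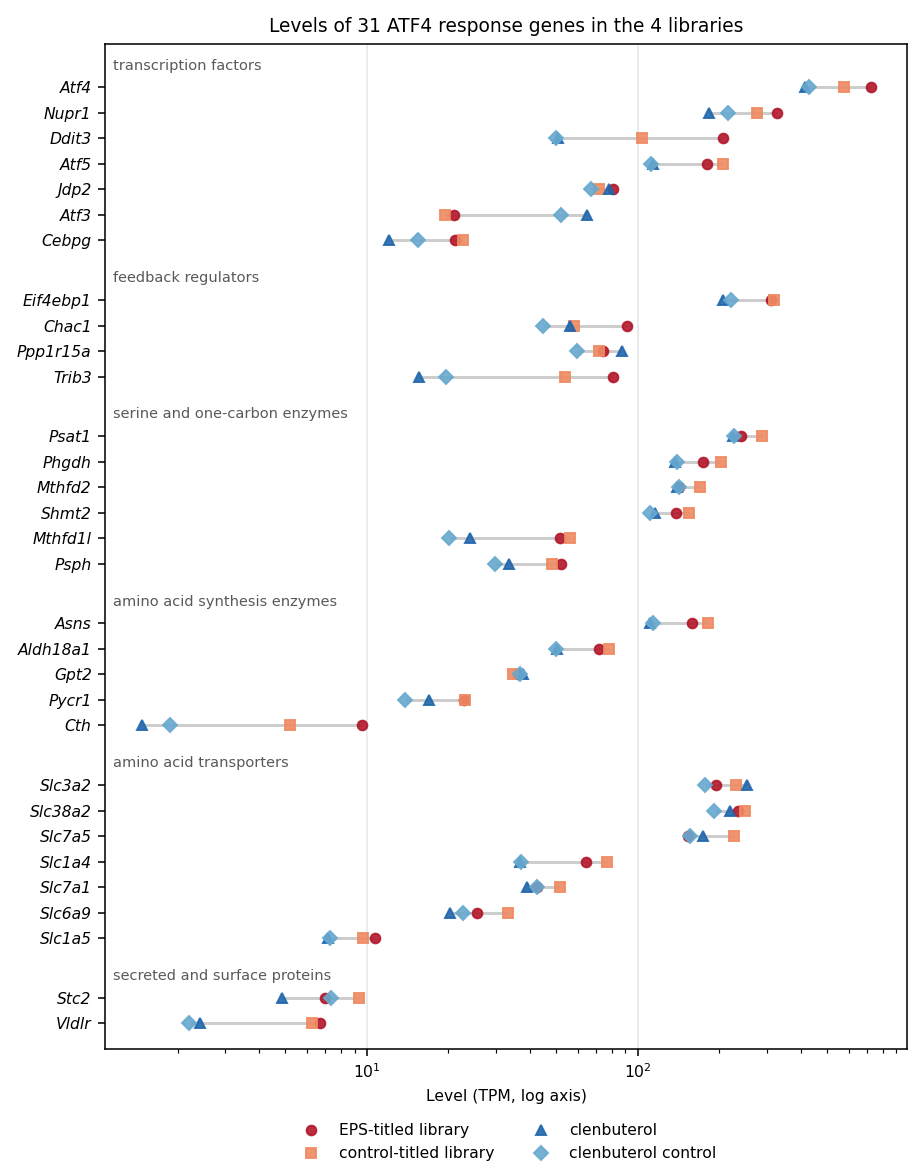
Level of each of the 31 genes in TPM on a log axis, by role, with 1 point for each of the 4 libraries and a grey line from the lowest to the highest. The EPS pair (red and orange) lies to the right of the clenbuterol pair (blue) for 24 genes, and Atf3 shows the reverse order.

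Across the 4 libraries the highest level of a member was a median of 1.64 times its lowest, beside 1.33 times over all 14213 genes that reached a TPM of 1 anywhere. Cth spanned 6.51 times, Trib3 5.23, Ddit3 4.15, Atf3 3.35, Vldlr 3.04 and Mthfd1l 2.81. At the other end, Gpt2 spanned 1.08 times, Jdp2 1.20 and Mthfd2 1.21. The control-titled library held the highest TPM of 17 members, the EPS-titled library of 10, clenbuterol of 4 and the clenbuterol control of 0. This tally has no share over all genes beside it, so it only describes the members and does not set them apart.

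Among the transcription factors, Atf4 itself (mm10 chromosome 15, 80255184 to 80257545) was the most abundant member. It measured 724 TPM in the EPS-titled library, 574 in the control-titled library, 414 with clenbuterol and 429.9 in the clenbuterol control. The clenbuterol pair nearly coincided, with a fold of 0.977 (0.951 to 1.004). The EPS-titled library was 1.29-fold above its control by title (1.27 to 1.32). Ddit3, which encodes the stress factor CHOP (chromosome 10, 127290793 to 127296291), measured 206 TPM in the EPS-titled library, 104 in the control-titled library, 50.9 with clenbuterol and 49.7 in its control. It made the largest step of any member within a pair, 2.09-fold higher in the EPS-titled library (1.96 to 2.22), while the clenbuterol ratio was 1.08 (0.976 to 1.20). Ddit3 shares 71 bases with Mars and 77 with Mbd6, both on the opposite strand. The kit marks strand, but whether counting used it is not stated.

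Atf3, a stress-induced repressor of the same zipper family, stood apart from the other members. It measured 21.0 TPM in the EPS-titled library, 19.4 in the control-titled library, 65.0 with clenbuterol and 51.8 in the clenbuterol control. Both clenbuterol-pair libraries were thus at least 2.47 times both EPS-pair libraries, and clenbuterol was 1.27-fold above its control (1.19 to 1.36). Nupr1, a small stress-induced chromatin protein, measured 327 TPM and 274 in the EPS-titled and control-titled libraries, and 183 and 216 with clenbuterol and in its control. Its ratios ran in opposite directions, 1.22-fold higher in the EPS-titled library (1.16 to 1.29) and 1.16-fold lower with clenbuterol (1.09 to 1.24).

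The remaining factors were partners and relatives of ATF4. Cebpg, a C/EBP protein that pairs with ATF4, measured 12.1 to 22.6 TPM. It was 1.26-fold lower with clenbuterol (1.15 to 1.39), and its EPS interval held 1. Atf5, an ATF4 relative that is also controlled by translation, was 1.11-fold lower in the EPS-titled library (1.07 to 1.15) and did not depart from 1 with clenbuterol beyond counting error. It shares 571 bases with Nup62 on the opposite strand. Jdp2, a repressor that dimerises with JUN and ATF proteins, was 1.19-fold higher in both comparisons (1.11 to 1.27 in each). Its TPM ranged only from 67.2 to 81.0.

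The feedback regulators held the highest ratio of the clenbuterol pair. Ppp1r15a encodes GADD34, which recruits a phosphatase to reverse eIF2α phosphorylation. It measured 87.6 TPM with clenbuterol, 59.7 in the clenbuterol control, 74.2 in the EPS-titled library and 71.7 in the control-titled library. Clenbuterol was 1.49-fold above its control (1.41 to 1.58), which is the largest clenbuterol ratio of the 31. The EPS pair lay between these libraries at a ratio of 1.06 (1.004 to 1.12). Chac1, which breaks down glutathione, was 1.27-fold higher with clenbuterol (1.17 to 1.39) and 1.61-fold higher in the EPS-titled library (1.50 to 1.72). It measured 56.3 TPM against 44.8 in the clenbuterol pair and 91.1 against 58.2 in the EPS pair, so that the EPS-titled library was the highest of the 4.

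Trib3, a pseudokinase that binds ATF4 and AKT and is itself an ATF4 target, measured 81.2 TPM in the EPS-titled library, 53.8 in the control-titled library, 15.5 with clenbuterol and 19.5 in the clenbuterol control. It was 1.55-fold higher in the EPS-titled library (1.45 to 1.65) and 1.24-fold lower with clenbuterol (1.09 to 1.40). The step between the pairs was larger than either: the lower EPS-pair library held 2.75 times the TPM of the higher clenbuterol-pair library. Eif4ebp1 encodes 4E-BP1, the translational brake that mTOR complex 1 phosphorylates. Its level was 311 and 319 TPM in the EPS pair against 206 and 220.4 in the clenbuterol pair, with ratios within pairs of 1.00 (0.959 to 1.04) and 0.945 (0.899 to 0.995).

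**Figure D2:**
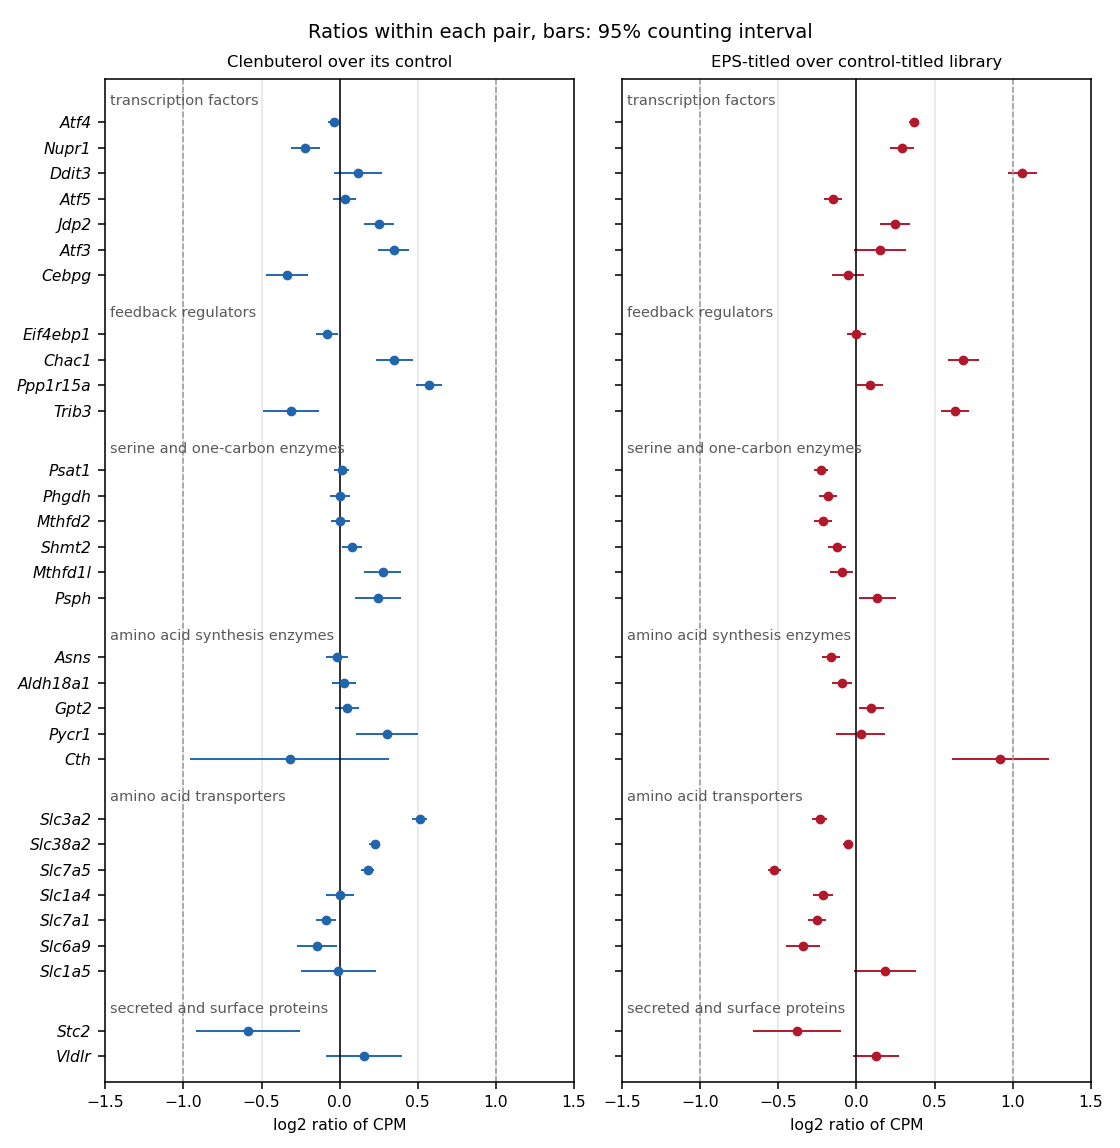
log2 ratio of CPM for each member with its 95% counting interval, clenbuterol over its control on the left and EPS-titled library over control-titled library on the right. Dashed lines mark 2-fold. Only the point of Ddit3 lies beyond that line, which the interval of Cth also crosses, and 15 members lie left of 0 with their whole interval on the right-hand panel.

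The serine and one-carbon enzymes differed little with clenbuterol and were mostly a little lower in the EPS-titled library. Phgdh, Psat1 and Psph carry out the successive steps from 3-phosphoglycerate to serine, and mitochondrial Shmt2, Mthfd2 and Mthfd1l pass its carbon through folate to formate. Phgdh measured 137 TPM with clenbuterol and 139 in its control, and 174 and 203 in the EPS-titled and control-titled libraries. Psat1 stood at 225 and 226 in the clenbuterol pair, and 239.8 and 288 in the EPS pair. Mthfd2 had 140.1 and 142 in the clenbuterol pair, and 142 and 169 in the EPS pair. For these 3 genes the clenbuterol intervals held 1, and the EPS-titled library was 1.13-fold to 1.17-fold below its control by title. Shmt2 (111 to 155 TPM) was 1.09-fold lower there (1.05 to 1.13) and 1.06-fold higher with clenbuterol (1.01 to 1.11).

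Psph, alone of the 6, had an interval above 1 in the EPS pair. It was 1.19-fold higher with clenbuterol (1.07 to 1.32) and 1.10-fold higher in the EPS-titled library (1.01 to 1.19). It shares 88 bases with Cct6a on the opposite strand. Mthfd1l measured 51.4 TPM and 56.4 in the EPS pair, 24.0 with clenbuterol and 20.1 in the clenbuterol control. The EPS pair was thus at least 2.14 times the clenbuterol pair. Within the pairs, Mthfd1l was 1.21-fold higher with clenbuterol (1.12 to 1.31) and 1.07-fold lower in the EPS-titled library (1.01 to 1.12), the same directions as Shmt2. All 6 genes of this group were higher in both EPS-pair libraries than in both clenbuterol-pair libraries, where 34.7% of 14213 genes were, though by a factor of only 1.01 for Mthfd2.

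Among the other amino acid enzymes, Asns, the asparagine synthetase gene and a standard ATF4 readout, measured 158 TPM in the EPS-titled library, 182 in the control-titled library, 111 with clenbuterol and 114 in its control. It was 1.12-fold lower in the EPS-titled library (1.08 to 1.17), opposite to Ddit3, Chac1 and Trib3, and its clenbuterol interval held 1. Aldh18a1 and Pycr1, which make proline from glutamate, showed the same order of pairs, at 71.8 and 78.5 TPM against 50.1 and 49.7 for Aldh18a1. Pycr1 was 1.23-fold higher with clenbuterol (1.08 to 1.42). Aldh18a1 shares 2837 bases with Gm15801 on the same strand, and how reads there were assigned is not stated.

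Cth, the cystathionine γ-lyase that makes cysteine, was the member with the widest range. It measured 9.61 TPM in the EPS-titled library, 5.18 in the control-titled library, 1.48 with clenbuterol and 1.88 in the clenbuterol control. These rest on 270, 129, 39 and 50 counts. It was 1.89-fold higher in the EPS-titled library (1.53 to 2.35), and the clenbuterol ratio of 0.803 (0.514 to 1.25) could not be told from 1 at this depth. Gpt2, which makes alanine in mitochondria, was the steadiest member, at 34.6 to 37.6 TPM in all 4 libraries.

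Among the transporters, a pair of partner chains was higher with clenbuterol and lower in the EPS-titled library. Slc3a2 and Slc7a5 encode the 2 chains of the transporter that exchanges glutamine for leucine and other large neutral amino acids. Slc3a2 measured 252 TPM with clenbuterol, 176 in the clenbuterol control, 195 in the EPS-titled library and 231 in the control-titled library. It was 1.43-fold higher with clenbuterol (1.38 to 1.47) and 1.18-fold lower in the EPS-titled library (1.14 to 1.22). Slc7a5 measured 173 TPM with clenbuterol, 155 in its control, 153 in the EPS-titled library and 226 in the control-titled library. It was 1.13-fold higher with clenbuterol (1.10 to 1.17) and 1.44-fold lower in the EPS-titled library (1.40 to 1.48), the largest EPS ratio in that direction. For Slc3a2 the clenbuterol library was the highest and its control the lowest of the 4, whereas for Slc7a5 the control-titled library stood above the other 3. Slc7a5 shares 1112 bases with Gm42049 on the same strand.

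Slc38a2, a sodium-coupled carrier of small neutral amino acids that is induced by amino acid lack, was 1.17-fold higher with clenbuterol (1.14 to 1.20). Its lowest level, 190.3 TPM in the clenbuterol control, compared with 219.6 to 249 in the other 3 libraries. The levels of Slc7a1 were 39.1 to 51.4 TPM and those of Slc6a9 20.2 to 33.1. Slc7a1 for cationic amino acids, Slc6a9 for glycine and Slc1a4 for alanine, serine and cysteine were 1.16-fold to 1.27-fold lower in the EPS-titled library. Slc1a4 also separated the pairs, at 64.6 and 76.9 TPM against 36.6 and 37.1. Slc1a5, a glutamine carrier, was the weakest transporter, at 7.16 to 10.7 TPM, and both of its intervals held 1. In all, 6 of the 7 transporters had an interval below 1 in the EPS pair and 0 above, where 25.3% and 25.0% of all genes did.

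Of the secreted and surface proteins, Stc2, which encodes the glycoprotein stanniocalcin-2, measured 4.84 TPM with clenbuterol, 7.40 in its control, 7.02 in the EPS-titled library and 9.37 in the control-titled library. It was 1.50-fold lower with clenbuterol (1.19 to 1.89), on 125 against 193 counts, the largest clenbuterol ratio in that direction. It was also 1.30-fold lower in the EPS-titled library (1.07 to 1.58). Vldlr, a lipoprotein receptor, measured 6.70 TPM and 6.29 in the EPS pair and 2.43 and 2.21 in the clenbuterol pair, a step of at least 2.59 times between pairs, with both intervals within pairs holding 1.

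A threshold of 1.25-fold in TPM plus 1, added after the values were seen, named the members that differed most. With clenbuterol 3 of 31 members were higher, Ppp1r15a, Slc3a2 and Chac1, and 2 were lower, Stc2 and Cebpg. The threshold fell between Chac1 (log2 0.3238) and Atf3 (0.3204), which had the same CPM fold of 1.27, and Trib3 (−0.3143) narrowly missed it. The called members were 5 in all, and the calls near the threshold depend on the scale used. These are 9.68% and 6.45% of the members, where 5.74% and 6.53% of all genes were called. In the EPS-titled library 5 were higher, Ddit3, Cth, Chac1, Trib3 and Atf4, and 3 were lower, Slc7a5, Stc2 and Slc6a9, or 16.1% and 9.68% where 7.51% and 12.6% of all genes were called. These shares rest on 2 to 5 genes each.

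Counting error alone was exceeded more often. With clenbuterol the interval lay above 1 for 11 members and below 1 for 7, where 17.7% and 13.9% of all genes did. In the EPS pair it lay above 1 for 10 and below 1 for 15, where 25.0% and 25.3% of all genes did. Such intervals narrow as counts grow, so abundant genes leave 1 more easily, and they say nothing of variation between cultures. In 7 members, or 22.6%, both intervals excluded 1 in opposite directions, where 10.6% of 13403 genes did: Slc3a2, Slc7a5, Slc38a2, Shmt2 and Mthfd1l were higher with clenbuterol and lower in the EPS-titled library, and Trib3 and Nupr1 the reverse. In another 7 members both intervals excluded 1 in the same direction, where 8.52% of genes did. Chac1, Jdp2, Ppp1r15a and Psph were higher in both comparisons, and Slc6a9, Slc7a1 and Stc2 lower in both. For Ppp1r15a the EPS interval began at 1.004, at the edge of this call.

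The roles differed in their medians in the EPS pair, a description with no test. The median log2 ratio of TPM plus 1 in the EPS-titled library was 0.17 for the 7 transcription factors and 0.32 for the 4 feedback regulators. It was −0.19 for the 6 serine and one-carbon enzymes and −0.25 for the 7 transporters. For the 5 amino acid synthesis enzymes it was −0.01, with a range from −0.20 (Asns) to 0.78 (Cth), and for the 2 secreted and surface proteins −0.15. Roles were mixed within themselves: Atf5 (−0.19) and Cebpg (−0.09) lay below 0 among the factors, and Psph (0.11) above 0 among the serine enzymes. Atf4, Ddit3, Trib3 and Chac1 were on one side, and Asns, Phgdh, Psat1, Mthfd2, Slc7a1 and Slc7a5 on the other, so the members did not share a direction. With clenbuterol the medians, in the same order, were 0.01, 0.11, 0.03, −0.02, 0.01 and −0.21.

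The widest difference of these genes lay between the library pairs. In 24 of 31 members, or 77.4%, both EPS-pair libraries had a higher TPM than both clenbuterol-pair libraries, where 34.7% of 14213 genes did. The gap was small for some, at 1.003 times for Slc7a1, 1.01 for Mthfd2 and 1.03 for Chac1. The share over all genes was not matched to the members by level. The reverse held for 2 members, Atf3 and, by only 1.02 times, Gpt2, where it held for 25.1% of all genes. The pairs overlapped for Jdp2, Ppp1r15a, Slc3a2, Slc7a5 and Stc2. The gap was at least 2-fold for 5 members, Cth, Trib3, Vldlr, Mthfd1l and Ddit3, where 0.971% of all genes reached it, and at least 2-fold the other way for Atf3, where 0.837% did. The summed TPM of the 31 members was 3954 and 3910 in the EPS-titled and control-titled libraries, and 2929 and 2811 with clenbuterol and in its control. The median log2 ratio of the EPS pair over the clenbuterol pair was 0.54 for the members and 0.04 over all genes. Each pair holds a treated and a control library, and the pairs cannot be told apart from whatever else differed between the 2 sets of libraries.

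**Figure D3:**
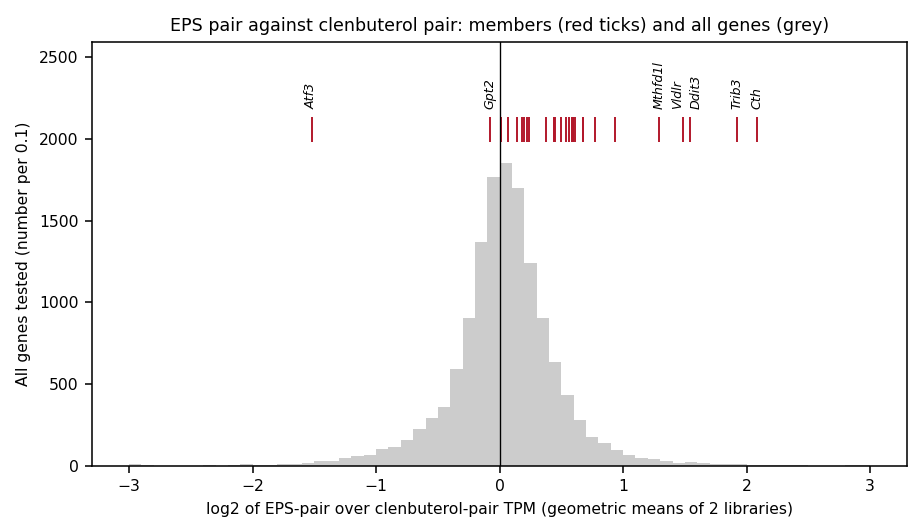
Grey bars count all genes that reached a TPM of 1 in any library and were above 0 in all 4, by the log2 ratio of the EPS pair over the clenbuterol pair (geometric means of TPM), with ratios beyond 3 drawn in the end bars. Red ticks mark the 31 members, most of which lie right of 0, with Atf3 alone far to the left.

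Differentiation markers also differed within and between the pairs, though members of a list did not all share a direction between the pairs. All 12 myotube markers were lower in the EPS-titled library than in the control-titled library, where 7548 of 13828 genes were. Their summed TPM was 11883 against 16360 there, and 18446 and 17834 in the clenbuterol pair. Both EPS-pair libraries were below both clenbuterol-pair libraries for 9 of the 12, where 25.1% of all genes were, and above them for 1, Casq1. The 7 myoblast markers summed to 177 and 149 TPM in the EPS pair, and 327 and 219.8 in the clenbuterol pair. Id3 held much of that last step, at 116 TPM with clenbuterol and 35.9 in its control. The EPS pair was below the clenbuterol pair for 4 of the 7 myoblast markers and above for 1, Myf5. The 7 fibroblast markers summed to 3862 and 4423 in the EPS pair against 2752 and 2554, with Tcf21 and Thy1 at 0 in all 4 libraries. Most of that sum was Col3a1 (1764 to 3029 TPM) and Col1a1 (573 to 1198). The 6 macrophage and leukocyte markers summed to 3.10 to 5.26 TPM, with Ptprc and Adgre1 at 0 throughout, and the 5 endothelial markers to at most 0.774. What part the state of differentiation had in the levels of the ATF4 genes was not tested, and in bulk RNA fewer cells of a kind and less RNA per cell cannot be told apart.

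Genes listed as upstream of ATF4 had steadier mRNA levels. Their highest TPM was a median of 1.17 times the lowest, beside 1.64 for the members and 1.33 over all genes. Kinase activity was not measured. The list held 15 genes: the eIF2α kinases, their regulators Gcn1 and Impact, Eif2s1 for eIF2α, Eif2a, Ppp1r15b, Nck1 and the subunits of the exchange factor eIF2B. As for the members, 0 differed by 2-fold in either comparison. Of all genes 1.00% and 0.515% were higher and lower by 2-fold with clenbuterol, and 0.868% and 1.14% in the EPS-titled library. Beside such shares a count of 0 does not set these genes apart. The EPS pair was above the clenbuterol pair for 5 and below for 2, where 34.7% and 25.1% of all genes were. The median log2 ratios of the 15 genes were 0.02 with clenbuterol and 0.03 in the EPS-titled library. The largest ratio among them was in Eif2b4, an eIF2B subunit, at 37.3 TPM in the EPS-titled library and 50.2 in its control by title, a log2 ratio of −0.42.

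The cytosolic aminoacyl-tRNA synthetases, many of which are ATF4 targets, were listed with the tRNA exporter Xpot. Of these 21 genes 0 differed by 2-fold or by 1.25-fold in either comparison, and the medians were −0.02 and −0.04. Of all genes 1.00% and 0.515% were at least 2-fold higher and lower with clenbuterol, and 0.868% and 1.14% in the EPS-titled library. At 1.25-fold these shares were 5.74% and 6.53% with clenbuterol, and 7.51% and 12.6% in the EPS-titled library. The log2 ratios of the 21 genes ran from −0.17 (Aars) to 0.08 (Gars) with clenbuterol. In the EPS-titled library they ran from −0.30 (Mars) to 0.24 (Eprs). In CPM the clenbuterol fold of Aars was 1.00 (0.977 to 1.03), so its TPM difference is not seen on that scale. The EPS folds in CPM were also nearer 1, at 0.868 for Mars and 1.12 for Eprs. The EPS pair was above the clenbuterol pair for 13 of these 21 and below for 3, where 34.7% and 25.1% of all genes were. The factor was smaller than for the members, with a median log2 ratio of 0.17.

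Other genes reported as ATF4 targets held larger differences. Of 18 that passed the filter in the clenbuterol pair, 16 had a ratio above 0, where 6395 of 13788 genes did. Of the 18, 2 were at least 2-fold higher, where 1.00% of all genes were. These 2 were Ddit4 (log2 2.34), an mTOR inhibitor, and Vegfa (1.17), the vascular growth factor, and both are also known to be induced by other routes. Of 19 in the EPS pair 0 reached 2-fold. Below 0 lay 12 of them, where 7548 of 13828 genes did. At least 1.25-fold lower were 7 of the 19, where 12.6% of all genes were. The lowest were Fgf21 (−0.88), a hormone that stressed muscle releases, and Cebpb (−0.84). Sesn2, a sensor of leucine, was highest at 0.52, with 26.3 TPM against 18.1. The EPS pair was above the clenbuterol pair for 11 of 19 and below for 2, where 34.7% and 25.1% of all genes were. The gap was at least 2-fold for 3 of those above, where 0.971% of all genes reached it. The median log2 ratio between the pairs was 0.41, so a step between the pairs was not particular to the members.

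Enzymes and carriers outside the member list gave few differences with clenbuterol and some in the EPS pair. With clenbuterol 0 of 13 other folate and glycine enzymes, 0 of 13 other amino acid enzymes and 0 of 13 other transporters differed by 2-fold. Of all genes 1.00% were at least 2-fold higher there and 0.515% lower. In the EPS-titled library 2 of 14 other transporters were at least 2-fold lower, where 1.14% of all genes were. These were Slc7a2 for cationic amino acids at 10.8 TPM against 25.4 and Slc1a3 for glutamate and aspartate at 13.1 against 28.7. Ass1, which joins citrulline to aspartate, was the lowest of the other amino acid enzymes at a log2 ratio of −0.70. Tyms, the thymidylate synthase gene, was the highest of the folate genes at 0.52. In CPM the fold of Tyms was smaller, at 1.27 (1.14 to 1.41). The EPS pair was above the clenbuterol pair for 10 of 13 other folate and glycine enzymes but for only 4 of 13 other amino acid enzymes, where 6 were below. Over all genes 34.7% were above and 25.1% below.

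**Figure D4:**
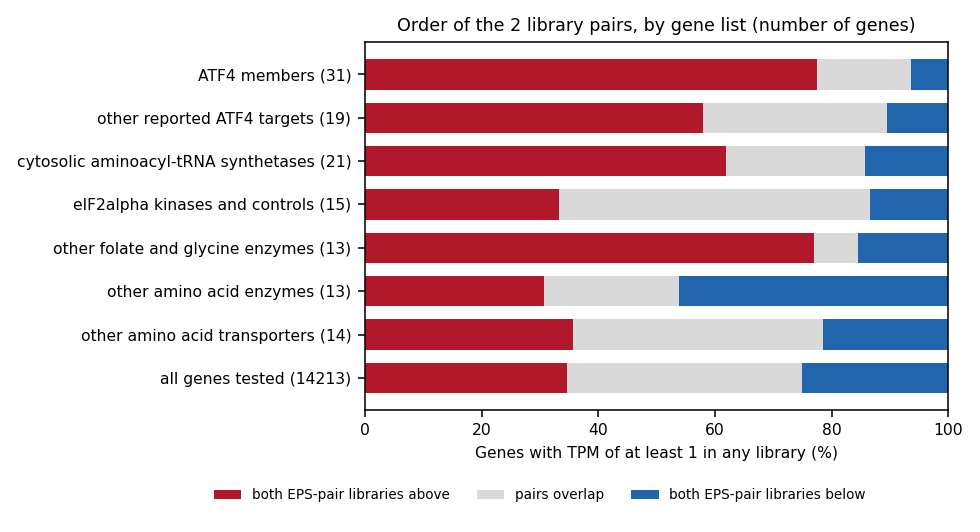
Share of genes in each list, with its number of genes, for which both EPS-pair libraries lay above (red) or below (blue) both clenbuterol-pair libraries in TPM. The 31 members have 24 genes in red and 2 in blue, and the bar at the bottom gives all 14213 genes.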

How the data were processed

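Per the submitters' processing notes, HISAT2 was used with the mm10 mouse build. The sources used here do not give the program that counted reads, its annotation or its strand setting. Deposited by the authors were a joint table of estimated counts, FPKM and TPM, and 1 table per library with coverage (a signal, not tested), FPKM, TPM and gene positions. Estimated counts per library totalled 32640884 to 35597074, and those of members ran from 39 to 19536. Columns were tied to samples through the file each sample lists, and groups through titles. No count model was fitted, since each group has 1 library. TMM factors came from edgeR 4.0.16 and size factors for an alternative from DESeq2 1.42.0, in R 4.3.3. The remaining steps used Python 3.11.15, pandas 2.3.3 and scipy 1.17.1. Log2 ratios used TPM plus 1. The Clopper-Pearson intervals were run on simulated counts that held counting error only, scaled by plain library totals. That run checks the calculation and says nothing of variation between cultures. The members and lists were chosen with earlier results of these data known. All members are named, and of 6 context lists the 2 highest and 2 lowest ratios were candidates for naming. The 1.25-fold threshold and the comparison of library pairs were added after the values were seen. Alternatives were pseudocounts of 0.1 and 5, CPM under 3 scalings, FPKM and other filters on low values.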

Additional observations from a re-analysis of the deposited data

Results flagged for a closer look

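In 7 of 31 members (22.6%) the 2 comparisons pointed in opposite directions, each beyond counting error, where 10.6% of 13403 genes did. In another 7 members they pointed the same way beyond counting error, where 8.52% of genes did. The difference between the comparisons was not tested, since each rests on 1 library per group. If the data names of the EPS pair are right, the first 7 point the same way and the other 7 in opposite directions. The log2 ratio of TPM plus 1 was 0.51 with clenbuterol for Slc3a2 and −0.24 in the EPS-titled library. For Slc7a5 it was 0.16 and −0.56, for Slc38a2 0.21 and −0.09, for Mthfd1l 0.25 and −0.13, and for Shmt2 0.0596 and −0.16. In the reverse order, it was −0.31 and 0.58 for Trib3, and −0.24 and 0.25 for Nupr1.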

How the results depend on the processing

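The count of members at 2-fold with clenbuterol stayed at 0 under each alternative run. In the EPS pair it was 1 (Ddit3) in CPM with TMM factors, with DESeq2 size factors or with plain library totals, and 1 in FPKM, and 0 otherwise. Members at least 1.25-fold higher with clenbuterol, 3 as reported, were 4 at a pseudocount of 0.1 and in CPM with TMM or DESeq2 factors. They were 2 at a pseudocount of 5, with plain library totals and in FPKM. Members at least 1.25-fold lower with clenbuterol, 2 as reported, were 4 at a pseudocount of 0.1, 1 at a pseudocount of 5 and 1 in FPKM. Those at least 1.25-fold lower in the EPS-titled library, 3 as reported, were 1 with plain library totals and 1 in FPKM. Both medians moved by less than the counting interval of a typical member, as did every member's clenbuterol ratio. In the EPS pair 13 of 31 members moved by more than that in FPKM and 9 with plain library totals. The sign changed under some alternative in 5 members with clenbuterol and 2 in the EPS pair, none of which had a log2 ratio beyond 0.04 as reported. The EPS pair was above the clenbuterol pair in 21 to 24 members under the alternatives tried. No paired analysis was possible because each group has 1 library. Depth limits Cth with clenbuterol most.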
